A study of Gallus gallus with 6 samples.

Results

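T and natural killer cells are the lymphocytes that recognise infected or altered cells, and in the small intestine many of them sit within and just beneath the epithelium. A T cell senses antigen through its receptor and the CD3 chains bound to it. CD4 or CD8 acts as coreceptor, LCK and ZAP70 carry the signal inwards, and receptors of the CD28 family raise or dampen it. Helper cells bearing CD4 direct other immune cells through cytokines and CD40 ligand, whereas cells bearing CD8 and natural killer cells kill through perforin and granzymes. A set of 38 genes of these cells was followed here in the jejunal mucosa of breeder hens. They were chosen by gene symbol. The table held 37 of them among 15656 genes used; CD96 was not analysed here. Testing required a mean FPKM of 1 or more over all libraries, which 34 of the 37 met. FPKM is the number of sequenced fragments scaled to gene length and to the depth of the library, so levels can be compared between genes. IL2RA, IFNG and THEMIS were below that minimum.

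RNA-seq libraries were available for 3 heat-adapted pools, from Leuang Hang Kao breeder hens, and 3 heat-sensitive pools, from SUT breeder hens. Each library held RNA pooled from 4 hens, and 12 of 25 housed hens entered each group. All hens were 28 weeks old and all had been kept at 36 °C for 6 h, so the groups differ in breed and no unheated library was analysed here. A pool hides the spread between its hens, and the p-values measure the spread between pools.

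Library totals of the deposited read counts ran from 10829957 to 13070796. Their rows are not in the order of the gene symbols, since 77 of the 3575 genes whose FPKM never fell under 20 stood beside 0 reads throughout. Values below are therefore FPKM. By their profile over the heat-sensitive libraries, count rows could be assigned to 110 genes (FPKM of 20 and counts of 300 or more in each of those libraries). At 24 deliberately wrong ratios the same search assigned 11.3 rows on average and 34 at most, so some assignments are false. In the heat-adapted columns of the 110 rows, 0 rows held the median ratio of read count to FPKM to within 0.05 (log2) in all 3 libraries, and the SD over rows was 0.819 to 1.08. False assignments would give the same result, and the ratio used, unlike the 24 wrong ones, was chosen from these data for its many matches. This check therefore cannot decide whether the heat-adapted FPKM and count columns differ by more than a scale factor. The labels and the table do not say which of them hold the labelled libraries. Every difference below carries this limit.

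The receptor chain genes CD3D, CD3E and CD247 were abundant in every library, and none was near 0. Of the other T cell markers, CD4, CD8A and ZAP70 had an FPKM between 13.37 and 34.73. LCK was at 4.04 to 9.61, and CD28 was lowest at 0.43 to 2.21. CD3D, a signalling chain of the receptor complex, had an FPKM of 354, 457 and 449 in the heat-adapted libraries and 541, 299 and 498 in the heat-sensitive libraries. Its mean lay above 97.8% of the genes tested. CD3E, the chain that assembles the complex, was at 114, 163 and 138 in the heat-adapted pools and 194, 146 and 171 in the heat-sensitive pools. Both genes overlapped between the groups, with log2 differences of -0.05 (95% interval -0.59 to 0.49) for CD3D and -0.30 (-0.70 to 0.10) for CD3E. A difference is the heat-adapted minus the heat-sensitive mean of log2(FPKM + 1), and the added 1 makes differences of low genes look smaller than they are. CD247, the zeta chain with the most signalling motifs, averaged 37.9 ± 9.20 in the heat-adapted pools and 53.8 ± 12.1 in the heat-sensitive pools (SD, n = 3 each), a log2 difference of -0.50 (-1.01 to 0.01). In bulk mucosa, fewer T cells and less RNA per T cell cannot be told apart. CD3E and CD3D are next to each other in the GRCg7b gene order of RefSeq. No label states whether counting used the strand, so reads of adjoining genes may have been shared.

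**Figure D1:**
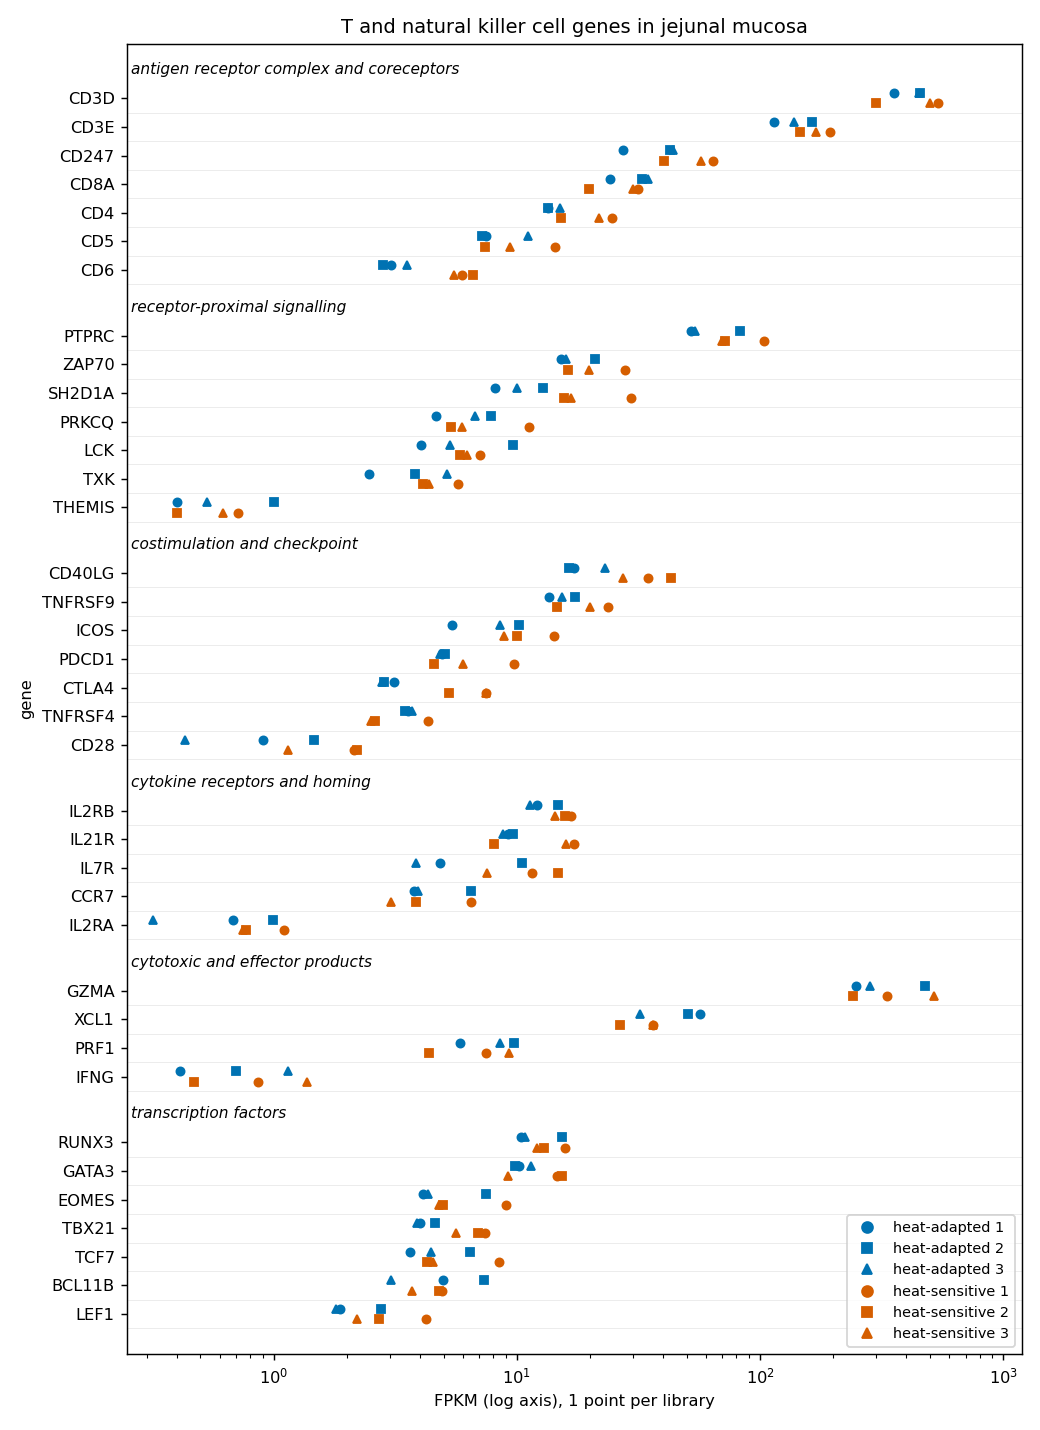
FPKM of the 37 T and natural killer cell genes on a log axis, with 1 point per library, heat-adapted above heat-sensitive, and genes grouped by role and ordered by mean. CD3D, GZMA and CD3E stand at the top of the range, and CTLA4, CD6, CD40LG, SH2D1A, TBX21 and CD4 are the genes whose groups do not overlap in FPKM, CD4 only narrowly.

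The coreceptors CD4 and CD8A had mean differences of opposite sign, and neither passed the test. CD4, the coreceptor of helper cells, had an FPKM of 13.5, 13.4 and 15.1 in the heat-adapted libraries and 24.6, 15.2 and 21.8 in the heat-sensitive libraries. The groups did not overlap in FPKM, though the highest heat-adapted and the lowest heat-sensitive values, 15.07 and 15.15, almost met. FPKM totals were 804719, 779174 and 884625 in the heat-adapted and 892744 to 897548 in the heat-sensitive libraries. Relative to these totals, CD4 of heat-adapted replicate 2 lies above that of heat-sensitive replicate 2, so the groups overlap. The CD4 log2 difference was -0.50 (SE 0.18, limma adjusted p = 0.22), or -0.38 with every library set to the same total. CD8A, the coreceptor of cytotoxic cells, was at 24.2, 32.7 and 34.7 in the heat-adapted pools and 31.6, 19.8 and 29.9 in the heat-sensitive pools, a log2 difference of 0.18 (-0.29 to 0.65). The CD8A values overlapped, and without heat-sensitive replicate 2 the difference was -0.03.

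The ratio of CD4 to CD8A within a library does not depend on how libraries are scaled to each other. It was 0.557, 0.409 and 0.434 in the heat-adapted libraries, against 0.778, 0.764 and 0.728 in the heat-sensitive libraries. The heat-adapted mean was 0.467 ± 0.0789, against a heat-sensitive mean of 0.757 ± 0.0261, and the groups did not overlap. All 9 ratios computed between genes were chosen after values had been seen. For this one, the exact permutation p of 0.1, 2-sided, was the smallest that 3 against 3 libraries allow (adjusted p = 0.3 over the 9). CD4 and CD8A do not mark T cells alone, since CD4 is found on some myeloid cells of other species and CD8A on natural killer cells. Of 16 macrophage and dendritic cell markers tested, 12 had a lower heat-adapted mean, against 58.3% of all genes. Their median log2 difference was -0.31, or -0.19 without heat-adapted replicate 3. It was -0.14 with 5 instead of 1 added to FPKM, and also -0.14 with a mean FPKM of 5 required. The summed FPKM of these markers was 665 to 767 in the heat-adapted pools and 703 to 777 in the heat-sensitive pools. Their part in the ratio was not tested.

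CD6, a receptor that docks T cells to activated leukocyte adhesion molecule, was lower in every heat-adapted library, while its neighbour and relative CD5 overlapped between the groups. Its FPKM was 3.03, 2.82 and 3.55 in the heat-adapted libraries and 5.93, 6.62 and 5.51 in the heat-sensitive libraries. Every heat-adapted value lay below every heat-sensitive value, with a log2 difference of -0.77 (SE 0.16, 95% interval -1.14 to -0.39). The adjusted p was 0.0979, over the threshold of 0.05. CD5, which dampens receptor signalling, had 7.44, 7.22 and 11.1 in the heat-adapted pools and 14.3, 7.43 and 9.35 in the heat-sensitive pools, and the groups overlapped (log2 difference -0.22, -0.77 to 0.33). The ratio of CD6 to CD5 was 0.407, 0.391 and 0.319 in heat-adapted libraries. In heat-sensitive libraries it was 0.415, 0.891 and 0.589, so the closest values of the groups differed by less than the spread within either group. Of the 7 genes of the receptor complex and its coreceptors, 6 had a lower heat-adapted mean, against 58.3% of all genes. Their median log2 difference was -0.30. It was -0.18 after rescaling FPKM to TPM, which sets every library to the same total, and -0.17 without heat-adapted replicate 1.

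Among genes that carry the signal inwards, SH2D1A had the largest difference. SH2D1A encodes SAP, an adaptor of SLAM family receptors that helper T cells and natural killer cells use in contacts with other lymphocytes. Its FPKM was 8.10, 12.9 and 9.98 in the heat-adapted libraries, against 29.3, 15.7 and 16.6 in the heat-sensitive libraries. The groups did not overlap, and heat-sensitive replicate 1 was far above the others. The log2 difference was -0.90 (SE 0.25, adjusted p = 0.147), and over the alternative settings it ranged from -1.05 to -0.62. PTPRC, the CD45 phosphatase found on nearly all leukocytes, had 51.9, 83.0 and 54.3 in the heat-adapted pools and 104, 71.7 and 70.0 in the heat-sensitive pools, a log2 difference of -0.38 (-0.88 to 0.12) with overlapping groups.

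The groups overlapped for the kinases that act inside the cell next to the receptor. LCK, the kinase bound to the coreceptors, was at 4.04, 9.61 and 5.31 in the heat-adapted pools, against 7.04, 5.86 and 6.26 in the heat-sensitive pools. ZAP70, the kinase recruited to the CD3 chains, averaged 17.4 ± 3.18 in the heat-adapted pools, against 21.3 ± 5.96 in the heat-sensitive pools. For TXK, a kinase of the TEC family, the means were 3.81 ± 1.34 in heat-adapted and 4.73 ± 0.870 in heat-sensitive pools. PRKCQ, the protein kinase C of the T cell contact zone, averaged 6.39 ± 1.60 in heat-adapted pools, against 7.53 ± 3.24 in heat-sensitive pools (SD, n = 3 for each). All 4 overlapped between the groups, with log2 differences between -0.28 and -0.08. THEMIS, which sets signal strength in developing T cells, averaged 0.643 ± 0.316 in heat-adapted pools, against 0.577 ± 0.159 in heat-sensitive pools, and was not tested. The median log2 difference of the 6 tested genes of this role was -0.27. It was -0.17 with TPM, -0.12 without heat-adapted replicate 1 and -0.11 without heat-sensitive replicate 1.

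Costimulatory and checkpoint receptors held the member of smallest p. CTLA4, which binds the same ligands as CD28 and dampens T cell activation, had an FPKM of 3.12, 2.85 and 2.79 in the heat-adapted libraries. In the heat-sensitive libraries it was at 7.45, 5.25 and 7.44. The groups did not overlap and the heat-adapted mean, 2.92 ± 0.176, was 0.435 times the heat-sensitive mean, 6.71 ± 1.27 (SD, n = 3 each). The log2 difference was -0.96 (SE 0.18, 95% interval -1.37 to -0.56), and its adjusted p of 0.0755 did not pass. Over the alternatives the difference ranged from -1.16 to -0.56 and the adjusted p from 0.0748 to 0.183.

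CD28 and ICOS, the activating relatives that lie on either side of CTLA4 in the GRCg7b gene order, overlapped between the groups. CD28, the main costimulatory receptor, was at 0.90, 1.46 and 0.43 in the heat-adapted pools and 2.13, 2.21 and 1.15 in the heat-sensitive pools, near the lower limit of the genes tested (log2 difference -0.56, -1.15 to 0.02). ICOS, a costimulator of activated helper cells, was at 5.42, 10.2 and 8.51 in the heat-adapted pools and 14.2, 10.1 and 8.89 in the heat-sensitive pools (-0.43, -0.97 to 0.11). CTLA4 per CD28 was 3.97 ± 2.31 in the heat-adapted pools and 4.11 ± 2.12 in the heat-sensitive pools, a difference well inside the spread. CTLA4 per CD4 was 0.231, 0.213 and 0.185 in the heat-adapted libraries, against 0.303, 0.347 and 0.342 in the heat-sensitive libraries. These groups did not overlap (exact permutation p = 0.1, adjusted p = 0.3 over the 9 ratios).

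CD40LG, the ligand through which helper T cells activate B cells and macrophages, had 17.2, 16.4 and 23.1 FPKM in the heat-adapted libraries and 34.6, 43.1 and 27.3 FPKM in the heat-sensitive libraries. The groups did not overlap, and the log2 difference was -0.85 (SE 0.20, adjusted p = 0.108). CD40LG was the most abundant gene of its role. Its ratio to CD4 overlapped between the groups, at 1.34 ± 0.165 in the heat-adapted pools and 1.84 ± 0.879 in the heat-sensitive pools. PDCD1, the PD-1 checkpoint receptor, was close to constant in the heat-adapted libraries, at 4.90, 5.07 and 4.85. It was at 9.69, 4.56 and 6.00 in the heat-sensitive libraries, which lay on both sides of them. TNFRSF9, the 4-1BB receptor of activated T and natural killer cells, averaged 15.4 ± 1.87 in the heat-adapted pools and 19.4 ± 4.57 in the heat-sensitive pools. TNFRSF4, the OX40 receptor of activated T cells, was the only one of the 7 tested genes with a higher heat-adapted mean, at 3.59 ± 0.126, against 3.15 ± 1.02 in heat-sensitive pools (log2 difference 0.17, -0.29 to 0.63). Summed over the 7, the FPKM was 48.8, 56.7 and 58.7 in the heat-adapted pools and 96.1, 82.4 and 73.3 in the heat-sensitive pools. CD40LG, described above, has the highest mean of the 7. For every other role the summed FPKM overlapped between the groups. The sum over all 37 members overlapped too, at 1061 to 1550 in the heat-adapted and 1102 to 1652 in the heat-sensitive pools. The median log2 difference of the 7 was -0.43. Without heat-sensitive replicate 1 that median was -0.25.

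The 4 tested receptors for cytokines and homing signals had a median log2 difference of -0.37. IL7R, through which interleukin 7 keeps resting T cells alive, had 4.81, 10.5 and 3.85 FPKM in the heat-adapted libraries and 11.5, 14.8 and 7.54 FPKM in the heat-sensitive libraries. Heat-adapted replicate 2 lay among the heat-sensitive values, and the log2 difference was -0.79 (SE 0.34, adjusted p = 0.275). IL2RB, the chain shared by the receptors for interleukins 2 and 15, was the most abundant of these genes. It had 12.1, 14.7 and 11.4 in the heat-adapted pools and 16.7, 15.7 and 14.4 in the heat-sensitive pools (log2 difference -0.28, SE 0.15). IL21R, the receptor of a cytokine from follicular helper cells, was at 9.17, 9.66 and 8.76 in the heat-adapted pools and 17.1, 8.03 and 15.9 in the heat-sensitive pools, and heat-sensitive replicate 2 was the lowest of all 6. CCR7, which guides T cells to lymphoid tissue, averaged 4.73 ± 1.49 in the heat-adapted pools and 4.45 ± 1.80 in the heat-sensitive pools (log2 difference 0.09), and its direction was reversed when heat-adapted replicate 2 (-0.11) or heat-sensitive replicate 3 (-0.10) was left out. IL2RA, the high-affinity chain of the interleukin 2 receptor, was between 0.32 and 1.10 in all libraries.

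Of the 3 tested products of cytotoxic cells, 2 had a higher heat-adapted mean, and none passed the test. GZMA, a granzyme and the second most abundant member after CD3D, had 249, 478 and 283 FPKM in the heat-adapted libraries, against 333, 240 and 521 FPKM in the heat-sensitive libraries. The spread within each group exceeded the difference between them (log2 difference -0.10, -0.84 to 0.64). The sign turned to 0.02 with TPM, to 0.09 without heat-adapted replicate 1 and to 0.19 without heat-sensitive replicate 3. PRF1, the pore-forming perforin, was at 5.83, 9.74 and 8.52 in the heat-adapted pools and 7.45, 4.36 and 9.25 in the heat-sensitive pools (log2 difference 0.20, -0.40 to 0.79). It was -0.07 without heat-sensitive replicate 2. XCL1, a chemokine that cytotoxic and natural killer cells release to attract dendritic cells, had 56.5, 50.4 and 32.1 in the heat-adapted pools and 36.3, 26.5 and 36.5 in the heat-sensitive pools. The XCL1 difference of 0.45 (-0.05 to 0.95, adjusted p = 0.318) was the highest of the 34 genes. IFNG, the interferon of these cells, was between 0.41 and 1.37 and was not tested.

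**Figure D2:**
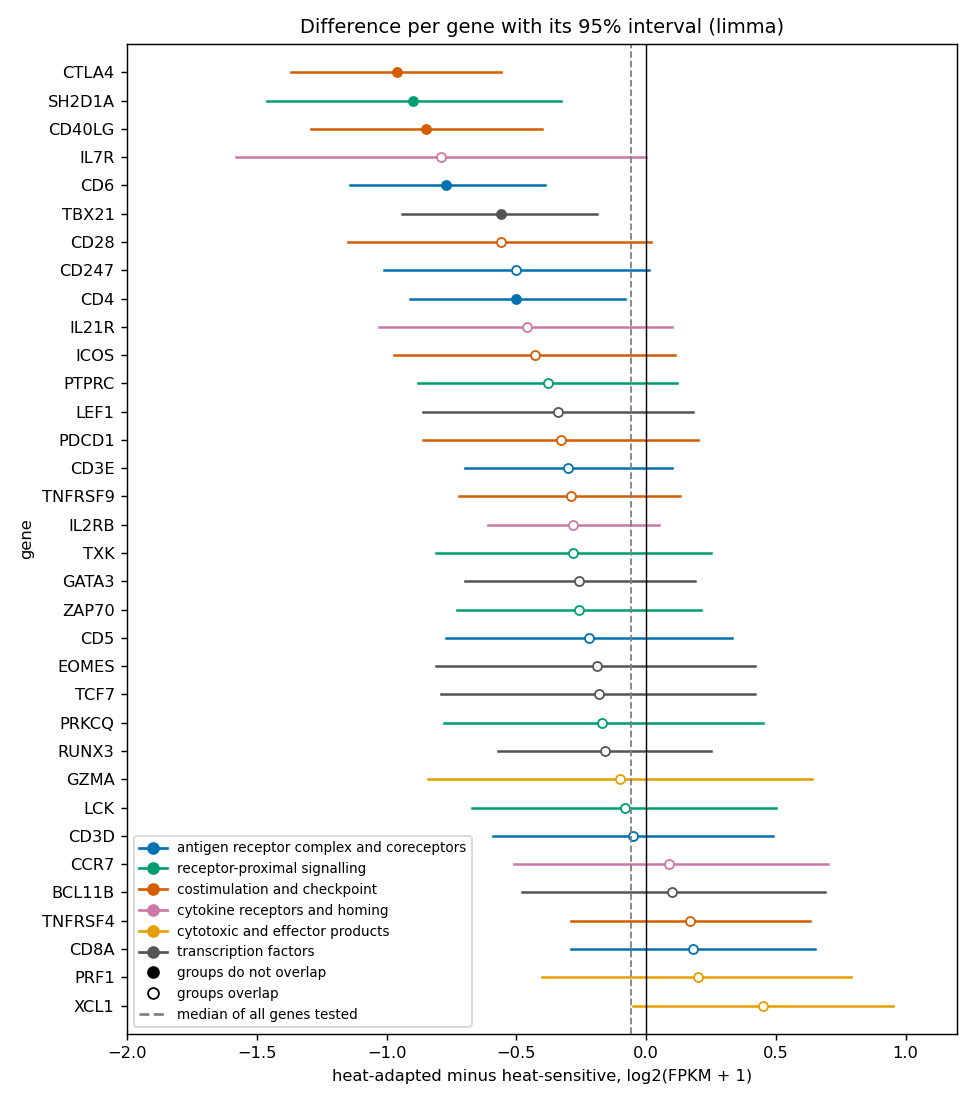
Heat-adapted minus heat-sensitive difference on the log2(FPKM + 1) scale for the 34 tested genes, with 95% intervals from limma and colours for roles; filled points mark genes whose groups do not overlap. CTLA4 (-0.96), SH2D1A (-0.90) and CD40LG (-0.85) lie at the low end and XCL1 (0.45) at the high end, and 28 of the 34 points are below 0.

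Of the 7 lineage transcription factors, TBX21 alone did not overlap between the groups. Over all genes, 12.9% did not overlap as lower and 9.0% as higher, so 1 of 7 is near the background. TBX21 encodes T-bet, which directs the type 1 helper programme and natural killer cell maturation. Its FPKM was 3.99, 4.60 and 3.87 in the heat-adapted libraries and 7.42, 6.91 and 5.60 in the heat-sensitive libraries, with no overlap between the groups. The log2 difference was -0.56 (SE 0.17, 95% interval -0.94 to -0.19, adjusted p = 0.16). EOMES, the related factor of cytotoxic cells, was at 4.10, 7.5 and 4.32 in the heat-adapted pools and 9.0, 4.97 and 4.79 in the heat-sensitive pools, which overlapped. RUNX3, which promotes the CD8 fate and is the most abundant factor of the group, had 10.4, 15.3 and 10.8 in the heat-adapted pools and 15.8, 12.95 and 12.1 in the heat-sensitive pools (log2 difference -0.16, -0.57 to 0.25). GATA3, the factor of type 2 helper cells, averaged 10.5 ± 0.860 in the heat-adapted pools and 13.02 ± 3.35 in the heat-sensitive pools. TCF7 and LEF1, which mark naive and memory T cells, averaged 4.84 ± 1.44 and 2.15 ± 0.535 in heat-adapted, against 5.75 ± 2.35 and 3.04 ± 1.05 in heat-sensitive libraries. BCL11B, which commits precursors to the T lineage, averaged 5.10 ± 2.13 in the heat-adapted pools and 4.48 ± 0.664 in the heat-sensitive pools, and its direction was reversed without heat-adapted replicate 2 (-0.15). GATA3, TCF7, LEF1 and BCL11B overlapped between the groups. The median log2 difference of the 7 factors was -0.19. It was -0.09 with TPM, -0.07 without heat-adapted replicate 1 and -0.06 without heat-sensitive replicate 1.

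Over all 34 tested genes none passed an adjusted p of 0.05 in limma, where 0.0345% of the 11587 genes tested passed as lower and 0.0604% as higher. The lowest adjusted p among them over all settings was 0.0748, for CTLA4. Without adjustment, 7 genes had a p below 0.05, all lower in the heat-adapted libraries (20.6%), against a background of 10.9% of all genes in that direction. In the other direction there were 0, against 7.13%. The 7 were CTLA4, CD6, CD40LG, SH2D1A, TBX21, CD4 and IL7R. Without heat-adapted replicate 2 the count was 11 of 34, against 9.81% of all genes. With a mean FPKM of 5 required it was 4 of the 26 genes still tested, against 10.4%; CTLA4 and CD6 were among the 8 no longer tested. In FPKM, groups did not overlap in 6 genes, all lower (17.6%), against 12.9% of all genes lower and 9.0% higher, so this count is near the background. It includes CD4, whose groups overlap relative to the FPKM totals of the libraries. A lower heat-adapted mean was found in 28 of 34 genes (82.4%), against 58.3% of all genes. The background depended on the scaling. With TPM, 25 of the 34 genes had a lower mean, against 43.1% of all genes. An unadjusted p below 0.05 was then reached by 5 lower, against 6.05% of all genes, and by 1 higher, XCL1, against 11.6%.

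The median log2 difference of the 34 genes was -0.28, against -0.06 over all genes tested. Both medians shifted with the scaling. With TPM, the members' median was -0.17 and that of all genes 0.05, a shift of all genes of more than 0.1. The gap between members and all genes was -0.22 with FPKM, TPM, quantile normalization and median-of-ratios scaling. Without heat-sensitive replicate 1 the members' median was -0.14 and the gap -0.11. Genes below the median of all genes numbered 27 of 34 under each of these scalings and 22 without heat-sensitive replicate 1.

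Much of the pattern ran by library. In 23 of the 34 genes heat-sensitive replicate 1 was the highest library (67.6%), against 23.5% of all genes, and in 0 the lowest, against 7.29%. Within the heat-adapted group, replicate 2 was highest for 23 of 34, against 39.8% of all genes, and replicate 1 for 2 of 34, against 17.2%. After each gene was centred on its mean, the median over the 34 genes was -0.30, 0.10 and -0.18 in the heat-adapted libraries and 0.45, -0.09 and 0.04 in the heat-sensitive libraries. Heat-adapted replicate 2 thus stood above heat-sensitive replicates 2 and 3, and the groups overlapped.

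**Figure D3:**
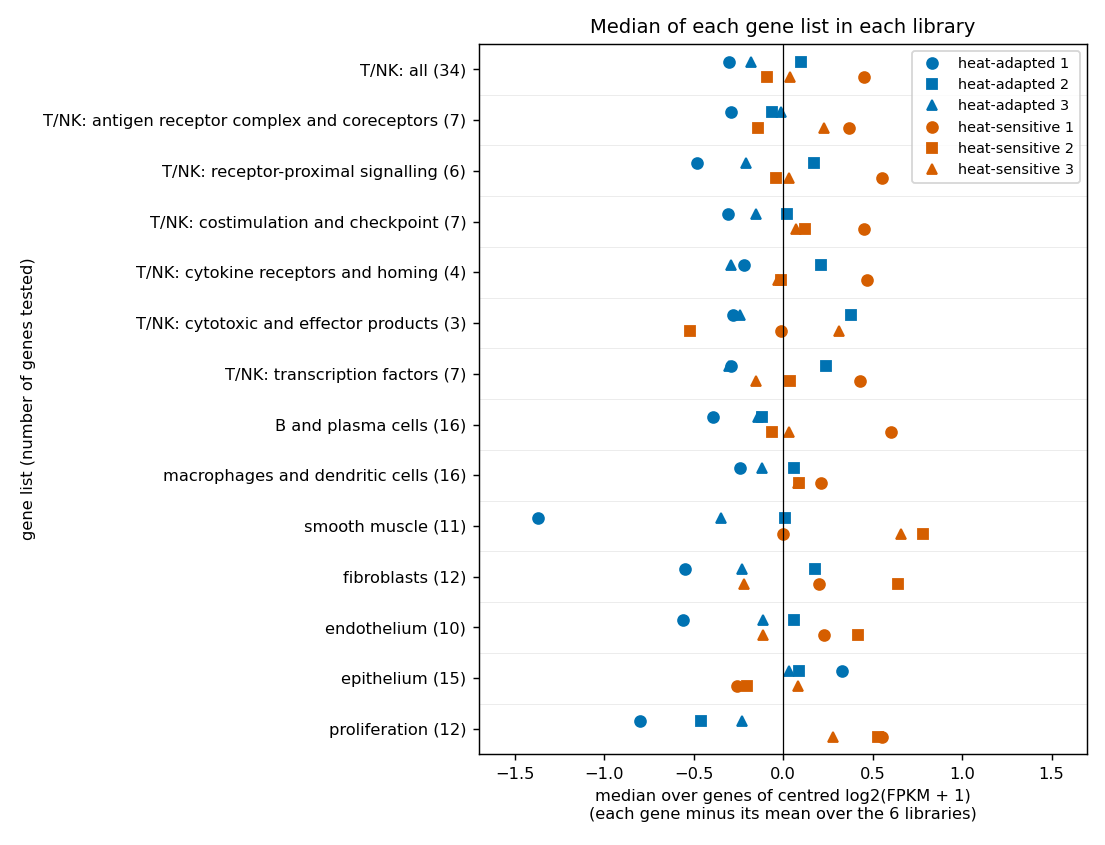
Median of centred log2(FPKM + 1) per library for T and natural killer cell genes (T/NK), by role, and for markers of other cell types and of proliferation, heat-adapted above heat-sensitive. For all 34 T and natural killer cell genes, heat-sensitive replicate 1 is highest at 0.45 and heat-adapted replicate 1 lowest at -0.30, and the same library is highest, at 0.60, for B and plasma cell markers.

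Each gene was also set against CD3E of the same library, as a gene that all T cells express. Computed on log2(FPKM + 1), the ratio to CD3E did not overlap between the groups for 3 of 33 genes in the lower direction, against 1.95% of all genes tested. In the higher direction it did not overlap for 2 of 33, against 20.8%. The lower genes were CTLA4, SH2D1A and CD6, with mean differences of -0.66, -0.60 and -0.47. CD8A and XCL1 were higher, at 0.48 and 0.75. CD40LG (-0.55), CD4 (-0.20) and TBX21 (-0.27) overlapped once set against CD3E. ZAP70, TNFRSF9, IL2RB, TXK and GATA3 had mean differences from 0.00 to 0.04 relative to CD3E. CD3E relative to PTPRC, which stands for leukocytes at large, was 2.24 ± 0.292 in the heat-adapted pools and 2.11 ± 0.296 in the heat-sensitive pools, and GZMA relative to PTPRC was 5.26 ± 0.485 in heat-adapted, against 4.66 ± 2.41 in heat-sensitive pools.

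**Figure D4:**
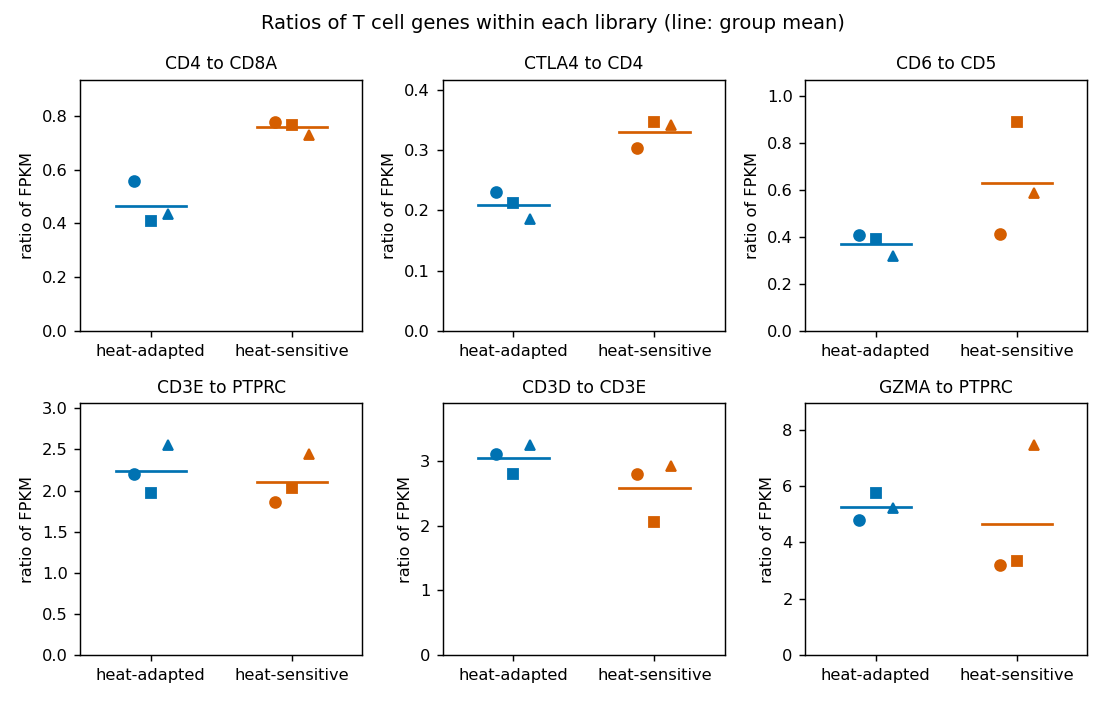
Ratios of FPKM between pairs of T cell genes within each library, heat-adapted left of heat-sensitive, with lines at the group means. CD4 to CD8A (0.409 to 0.557 in the heat-adapted pools and 0.728 to 0.778 in the heat-sensitive pools) and CTLA4 to CD4 (0.185 to 0.231 in heat-adapted, against 0.303 to 0.347 in heat-sensitive pools) are set apart without overlap, while CD3E to PTPRC overlaps.

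Further genes of the same pathways were counted from lists drawn up by function, with earlier results of these data known. Found by symbol were 27 of 33 genes of antigen receptor signalling and 16 of 26 further receptors and ligands. For ligands on presenting cells 8 of 10 were found, for cytokines and their receptors 20 of 25, and for signal transducers and factors 27 of 27. The counts below cover only those found that met the minimum for testing. Of 27 further genes of antigen receptor signalling, 22 had a lower heat-adapted mean, against 58.3% of all genes, with a median log2 difference of -0.22. That median was -0.08 without heat-sensitive replicate 1, -0.14 without heat-adapted replicate 1 and -0.11 with TPM. Without adjustment, 2 had a p below 0.05, both lower, against 10.9% of all genes. They were NFATC2, a calcium-driven factor that switches on cytokine genes, at 4.67, 7.33 and 5.50 in the heat-adapted pools and 11.2, 8.88 and 7.53 in the heat-sensitive pools, and FYN, a kinase related to LCK, at 9.53, 13.65 and 8.77 in the heat-adapted pools, against 17.1, 14.05 and 13.6 in the heat-sensitive pools. DGKA, which dampens signalling by removing diacylglycerol, had a higher mean, at 10.4 ± 0.889 in the heat-adapted pools and 7.73 ± 2.13 in the heat-sensitive pools (log2 difference 0.41, -0.02 to 0.83). Among 14 further receptors and ligands of T and natural killer cells, 12 had a lower mean (median -0.41, or -0.27 without heat-sensitive replicate 1) and 3 an unadjusted p below 0.05, all lower, against 58.3% and 10.9% of all genes. These were the adhesion receptor CD44, the chemokine receptor CXCR4 and CD226, an activating receptor of natural killer and T cells, which was at 5.64, 5.12 and 3.81 in the heat-adapted pools and 8.73, 6.51 and 6.00 in the heat-sensitive pools.

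Ligands on presenting cells were split, with 3 of 6 lower, against 58.3% of all genes. Their median was -0.08, which ranged from -0.27 to 0.09 with a library left out and was 0.03 with TPM. With a mean FPKM of 5 required, the median was -0.45. CD274, the PD-L1 ligand of PDCD1, averaged 6.97 ± 0.892 in the heat-adapted pools and 11.4 ± 3.03 in the heat-sensitive pools, a log2 difference of -0.61 (SE 0.21, adjusted p = 0.194). Cytokines of these cells and their receptors were lower in 9 of 13, against 58.3% of all genes. Their median was -0.03 (from -0.09 to 0.03 with a library left out), and none had an unadjusted p below 0.05. The shared receptor chain IL2RG had a log2 difference of -0.38 (-0.77 to 0.01). Of 26 signal transducers and factors of T cell states, 19 had a lower mean (median -0.14) and 4 an unadjusted p below 0.05, all lower, against 58.3% and 10.9% of all genes. The median was -0.03 without heat-sensitive replicate 1, -0.06 without heat-adapted replicate 1 and -0.04 with TPM. ID2, which innate lymphoid cells and many other cells use, was at 173, 187 and 196 in heat-adapted, against 251, 243 and 240.3 in heat-sensitive libraries. None of the genes in these lists passed an adjusted p of 0.05.

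Markers of other cells also had different means in the groups, and no list was tested as a whole. Over all genes tested, 58.3% had a lower heat-adapted mean, or 43.1% with TPM. Markers of B and plasma cells had a lower mean in 16 of 16 tested (median log2 difference -0.55), and their summed FPKM was 17259 to 23889 in the heat-adapted pools and 32258 to 35361 in the heat-sensitive pools, most of it from the immunoglobulin light chain gene IGLL1. Without heat-sensitive replicate 1 that median was -0.26. Smooth muscle markers had a lower mean in 11 of 11 (median -1.03, or -0.54 without heat-adapted replicate 1), with summed FPKM of 296 to 634 in the heat-adapted pools and 613 to 1222 in the heat-sensitive pools. Fibroblast markers were lower in 12 of 12 and endothelial markers in 10 of 10, with medians of -0.39 and -0.34 and sums that overlapped. Leaving out heat-sensitive replicate 2 gave a median of -0.21 for fibroblast and also -0.21 for endothelial markers. The fibroblast median became -0.61 when heat-sensitive replicate 3 was dropped, and the endothelial median -0.17 when heat-adapted replicate 1 was dropped. Epithelial markers were higher in 12 of 15 (median 0.23), with sums of 37205 to 54576 in the heat-adapted pools and 22824 to 45604 in the heat-sensitive pools. With a library left out, the epithelial median ranged from 0.16 (without heat-adapted replicate 1) to 0.38 (without heat-sensitive replicate 3). Proliferation genes, which dividing lymphocytes share with crypt cells, were lower in 12 of 12 (median -0.92), with sums of 154 to 217 in the heat-adapted pools and 322 to 368 in the heat-sensitive pools. Erythrocyte and thrombocyte markers had a median of -0.01 over 6 tested, and granulocyte markers -0.49 over 3. An unadjusted limma p below 0.05 in the lower direction was reached by 11 of 12 proliferation genes and 6 of 11 smooth muscle markers. It was also reached by 4 of 16 B and plasma cell, 2 of 16 macrophage and dendritic cell, 2 of 12 fibroblast and 2 of 10 endothelial markers. Of granulocyte markers 1 of 3 reached it, and of erythrocyte and thrombocyte markers 0 of 6. The share of all genes was 10.9%. In the higher direction, 3 of 15 epithelial markers reached it, against 7.13% of all genes. No gene of these lists passed an adjusted p of 0.05. No marker found by symbol was listed at 0 in all 6 libraries, but several markers were not found. Those found were 18 of 21 B and plasma cell, 9 of 16 erythrocyte and thrombocyte, 5 of 10 granulocyte and 12 of 13 proliferation genes. How far these cells share in the values of the T and natural killer cell genes was not tested.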

How the data were processed

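Jejunal mucosa RNA of 6 libraries was sequenced, and the deposited table holds FPKM, with at most 2 decimals, and estimated read counts. The submitters' processing notes name HISAT2 2.0.1, HTSeq 0.6.1, cutadapt 1.9.1, DESeq2 and GRCg6a as the build; the labels do not say how these tools were set. Of the deposited estimated counts, 13.2% to 13.7% per library are not whole, and they served only for totals and for the check of row order. A gene with an FPKM of 20 or more received a count row of 300 or more when its heat-sensitive profile matched within 0.004 (natural log) and the next best row was more than 0.02 away. In 19 rows the symbol had become a date, and 1 row had none; these were left out. Amplification copies cannot be told from molecules, and the depth behind a single FPKM value is unknown.

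The main test was limma 3.58.1 (R 4.3.3; empirical Bayes with trend and robust options) on log2(FPKM + 1) of every gene whose mean FPKM reached 1, 2-sided, with Benjamini-Hochberg adjustment over all 11587 genes. The members and lists were chosen with earlier results of these data known. All members are named. Values in every library and full statistics were planned for CD3E, CD3D, CD4, CD8A, PTPRC, members at an unadjusted p below 0.05 and the most abundant member of each role; of the pathway lists, up to 3 genes of smallest p. RefSeq's gene table of GRCg7b, another build, held all 37 members and gave neighbours only, so no coordinates are printed. A gene of the pathway lists that the rule would name is not reported here.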

Additional observations from a re-analysis of the deposited data

How the results depend on the processing

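The 15 alternatives changed the pseudocount (0.1 and 5), the filter, the scaling, the moderation, the block and, in turn, each library. No member passed under any of them. The number of genes called was 11 and became 17 with a pseudocount of 0.1, 7 without a filter and with a minimum of 5, 38 with TPM, 20 with median-of-ratios scaling, 46 with the replicate block and 6 to 64 with a library left out (6 without heat-adapted replicate 2, 64 without heat-adapted replicate 3). Members at an unadjusted p below 0.05 and lower numbered 4 of 26 with a minimum of 5, against 10.4% of all genes, and 5 to 11 of 34 with a library left out, against 5.13% to 13.8%. With a library left out, the members' median ranged from -0.40 to -0.14. The number with a lower mean then ranged from 23 to 30 of 34, against 53.1% to 60.3% of all genes. Deviations of same-numbered pools from their group means correlated at -0.161, 0.11 and -0.191 over genes. Deviations within a group of 3 pools depend on each other, so these values cannot decide whether replicate numbers pair the pools. With the block, 8 of 34 members had an unadjusted limma p below 0.05 and were lower (23.5%), against 8.69% of all genes. In the higher direction there were 0, against 5.99%.

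Of the 34 members, 21 were lower and 2 higher in every alternative that tested them, and 11 took both directions. The same count over all genes is not given here, so these numbers have no background beside them. All alternatives drew on the same 6 libraries. With TPM, CD3D, GZMA and LCK were at 0.07, 0.02 and 0.02; CD3D was at 0.03 with median-of-ratios scaling and LCK at 0.01 with quantile normalization. With a library left out, CD3D ranged from -0.31 to 0.11 (above 0 without heat-adapted replicate 1 and without either of heat-sensitive replicates 1 and 3). GZMA ranged from -0.38 to 0.19, LCK from -0.39 to 0.15, PRKCQ from -0.35 to 0.13, CD5 from -0.41 to 0.02, EOMES from -0.43 to 0.06, TCF7 from -0.37 to 0.09, CD8A from -0.03 to 0.33, PRF1 from -0.07 to 0.40, BCL11B from -0.15 to 0.37 and CCR7 from -0.11 to 0.34. The cause was not tested.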
